A study of Mus musculus with 8 samples.

Results

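The conjugation enzymes described here are the UDP-glucuronosyltransferases (UGT), the glutathione S-transferases (GST, with the microsomal Mgst genes) and the cytosolic sulfotransferases (SULT). Their genes were taken by symbol, with 12 prefixes: Ugt1a, Ugt2, Ugt3, Gsta, Gstm, Gstp, Gstt, Gsto, Gstk, Gstz, Mgst and Sult. The table of expected counts held 62 such genes among 21759. Of these, 40 had 10 or more counts in at least 4 of the 8 libraries and were described and tested, namely 14 of 20 UGT genes, 20 of 24 GST genes and 6 of 18 SULT genes.

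Kidney RNA came from 8-month-old male mice that all carried the knock-in that models MUC1 kidney disease, which is inherited and caused by frameshift mutations of the MUC1 gene. BRD4780, a small molecule reported to act on the cargo receptor TMED9, was given to 4 mice at 50 mg/kg every day for 7 days, and saline vehicle was given to the other 4 on the same schedule. Each library came from a sagittal slice of the kidney, by oligo-dT capture and a stranded TruSeq protocol. Mice without the knock-in were not analysed here, so every comparison is BRD4780 against vehicle within that genotype.

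Conjugation makes small molecules more soluble and easier to excrete. UGT enzymes sit in the membrane of the endoplasmic reticulum and transfer glucuronic acid from UDP-glucuronic acid to phenols, steroids, bilirubin and many drugs. Most GST enzymes are cytosolic and join glutathione to electrophiles, and SULT enzymes transfer sulfate from the donor PAPS to phenols, catecholamines and steroids. The proximal tubule of the kidney expresses all 3 families and takes up and secretes their products.

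Library totals were 23.2, 28.2, 27.8 and 5.74 M expected counts in BRD4780 replicates 1 to 4, and 28.5, 28.1, 16.6 and 23.8 M in vehicle replicates 1 to 4. BRD4780 replicate 3 stood apart from the other treated libraries: 55.6% of all tested genes lay inside the range of the 4 vehicle libraries there, against 32.9% to 37.6% in the other 3 treated libraries. For the 40 conjugation genes the count inside the vehicle range was 18 in BRD4780 replicate 3 and 16, 17 and 14 in replicates 1, 2 and 4. Calls that changed without that library are given beside the results. It was singled out from these same data for lying nearest to vehicle, so p-values without it are not a second test. BRD4780 replicate 4 was the shallowest library, where a count of 0 allows up to 0.523 counts per M (CPM), against 0.105 CPM in vehicle replicate 1, the deepest. These floors of 3 counts use the library totals above, without the TMM scaling of the other CPM values, and cover counting error only.

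With BRD4780, 2 of the 40 genes rose and 0 fell by edgeR's quasi-likelihood test with Benjamini-Hochberg adjustment over 13474 genes, at an adjusted p under 0.05. The genes that rose were Sult1a1, a phenol sulfotransferase, 2.23-fold, and Ugt2b5, a UGT of the 2B subfamily, 3.24-fold. Among all tested genes 2.92% were called (2.30% higher and 0.623% lower), against 5% of the 40. At an unadjusted p under 0.05, 4 of the 40 were higher and 6 were lower, beside 13.9% higher and 10.7% lower of all tested genes. DESeq2 called 3 higher and 3 lower of the 40, beside 6.03% higher and 3.47% lower of all genes with an adjusted p. Limma voom called 1 higher and 0 lower, beside 1.51% and 0.520% of all tested genes. The median log2 fold change of the 40 was -0.05, beside 0.01 over all tested genes, with 18 values above 0 and 22 below.

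Without BRD4780 replicate 3, 4 of the 40 rose and 10 fell. Those that rose were Sult1a1, Ugt2b5, Ugt1a2 and Sult1d1. Those that fell were Ugt1a6a, Ugt1a7c, Ugt1a9, Ugt1a10, Ugt3a1, Ugt3a2, Gstm4, Gstt1, Gstt3 and Sult1c2. The Ugt1a genes named share exons 2 to 5, so their values are not independent of each other, though each is counted singly. The background moved too: 23.5% of all tested genes were called in that comparison, 12.1% higher and 11.3% lower, beside 35% of the 40. Leaving out any other library called 0.229% to 1.7% of all genes. The median log2 fold change of the 40 was then -0.08, beside 0.02 over all tested genes. In the 8 libraries the groups did not overlap for 4 of the 40 in the direction of higher levels with BRD4780 (10%, against 7.44% of all tested genes) and for 3 in the direction of lower levels (7.5%, against 5.16%).

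**Figure D1:**
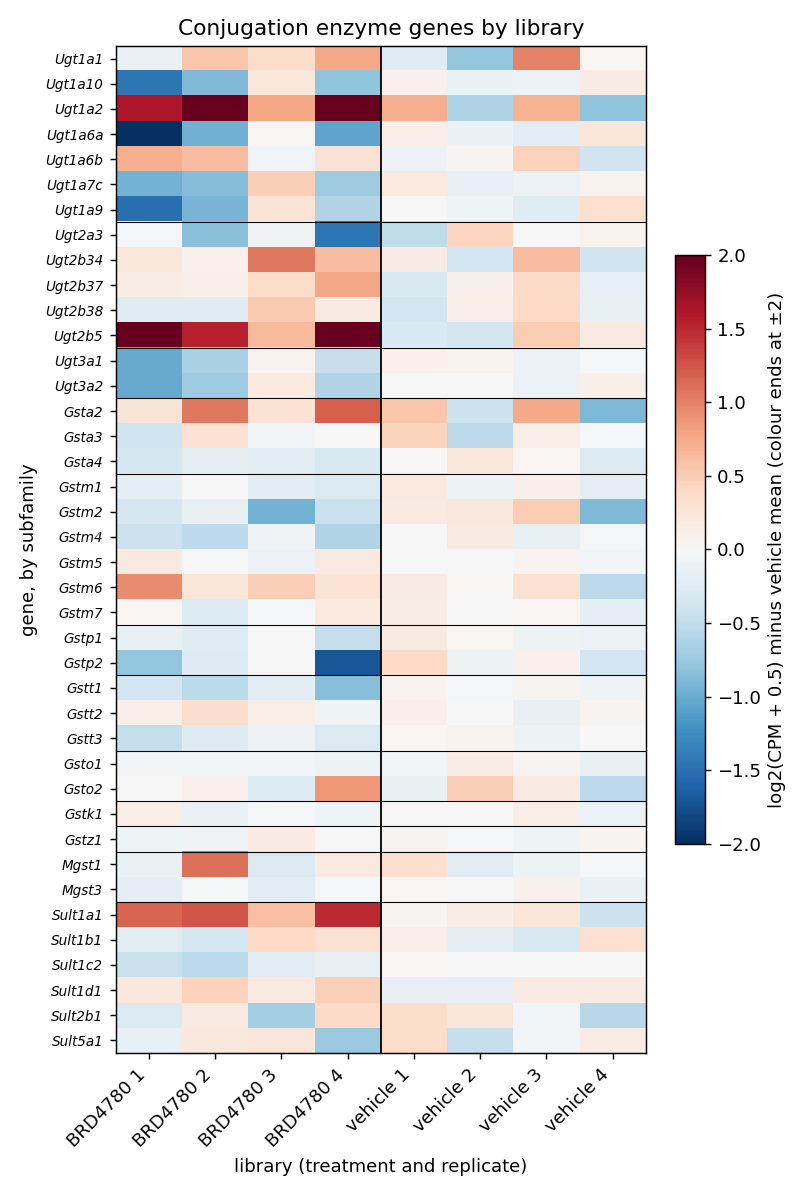
Level of each of the 40 genes (rows, by subfamily) in each library (columns), as log2(CPM + 0.5) minus the mean of the 4 vehicle libraries. In the rows of Ugt1a10, Ugt1a9, Ugt3a1 and Ugt3a2, BRD4780 replicates 1, 2 and 4 are below the vehicle mean and BRD4780 replicate 3 is not, while Sult1a1 and Ugt2b5 are above it in all 4 treated libraries.

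Per kilobase of transcript, the highest mean levels in this set belonged to Ugt3a2, at 503 CPM per kb with BRD4780 and 692 with vehicle, and to Gstm1, at 586 CPM per kb with BRD4780 and 665 with vehicle. Below them in the vehicle kidneys came a group of close levels, namely Gstp1, Gstz1, Gstm5 and Sult1d1 at 302, 306, 316 and 374 CPM per kb with BRD4780, and at 350, 305, 302 and 296 with vehicle. Ugt1a10, the highest of its cluster, averaged 145 CPM per kb with BRD4780 and 220 with vehicle. The lowest was Sult5a1, at 0.0793 CPM per kb with BRD4780 and 0.0933 with vehicle. Sult1a1, Ugt2b5 and Ugt1a2 belonged to the lower end of the order in vehicle kidneys.

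**Figure D2:**
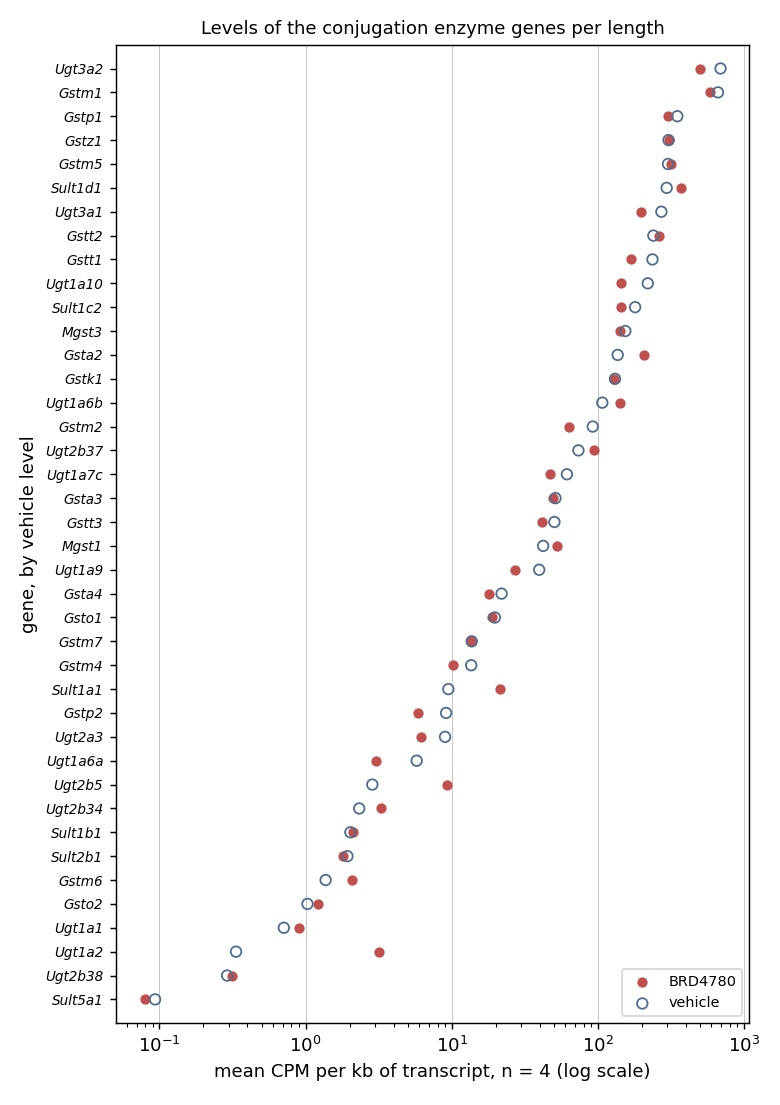
Mean level per kilobase of transcript (log axis, n = 4 per group) of the 40 genes, ordered by the vehicle mean, with BRD4780 as filled and vehicle as open circles. Levels run from Ugt3a2, at 503 CPM per kb with BRD4780 and 692 with vehicle, down to Sult5a1, at 0.0793 and 0.0933. The circles of most genes lie close together, and those of Ugt1a2, Ugt2b5 and Sult1a1 are farthest apart.

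The 22 genes under the count limit were near or at 0. Of these, 6 had 0 counts in every library: Ugt2a2, Ugt2b1, Sult1c1, Sult2a6, Sult2a7 and Sult3a1. Nearest below the limit was Mgst2, with 10 or more counts in 2 libraries and a highest count of 11. Nearest above it were Ugt2b38 and Sult5a1, with 10 or more counts in 4 libraries each. Ugt1a5 and Ugt2b35 reached 10 counts in 1 library each, with highest counts of 18.4 and 13. The other genes under the limit stayed below 10 counts in every library, and they included Gsta1 (highest count 9.45), Sult2a1, a hydroxysteroid sulfotransferase (2), and Sult1e1, the oestrogen sulfotransferase (4).

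The Ugt1a genes need their structure stated first. The genes lie on chromosome 1 of GRCm38 (mm10), plus strand. Each is named for a first exon, which encodes the part of the enzyme that binds the acceptor. All join the same exons 2 to 5, which encode the part that binds UDP-glucuronic acid. The annotation does not keep all first exons apart, since the sequence of the Ugt1a6a transcript also occurs under Ugt1a7c, as given below. In GENCODE M21 the first exons run from that of Ugt1a10 (88055411 to 88056336), through those of Ugt1a9, Ugt1a7c, Ugt1a6b, Ugt1a6a, Ugt1a5 and Ugt1a2, to that of Ugt1a1 (88211959 to 88212871). Exon 2 lies at 88215044 to 88215175. Of the bases of a transcript, 57.9% to 59.9% lay in exons 2 to 5, and 71.7% for Ugt1a7c, whose annotated exon 5 is longer. The 60 bases around each junction are printed below to show where a read stops naming its gene: the lower-case stretch is the end of exon 1, and the capitals are the start of the shared exon 2, from GENCODE M21 and GRCm38.
Ugt1a10: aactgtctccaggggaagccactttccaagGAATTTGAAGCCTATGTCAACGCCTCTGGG
Ugt1a9: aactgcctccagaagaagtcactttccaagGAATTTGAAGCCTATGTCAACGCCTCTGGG
Ugt1a7c: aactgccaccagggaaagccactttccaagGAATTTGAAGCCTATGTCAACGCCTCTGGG
Ugt1a6b: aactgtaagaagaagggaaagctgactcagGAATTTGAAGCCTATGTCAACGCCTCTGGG
Ugt1a2: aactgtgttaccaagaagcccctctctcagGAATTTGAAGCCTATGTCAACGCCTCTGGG
Ugt1a1: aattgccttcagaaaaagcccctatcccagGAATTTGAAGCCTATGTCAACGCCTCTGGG

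The junction of Ugt1a6a is letter for letter that of Ugt1a6b, and the junction of Ugt1a5 is that of Ugt1a2. Over the whole first exon, Ugt1a6a and Ugt1a6b were 95.1% identical, Ugt1a10 and Ugt1a9 87.8%, Ugt1a2 and Ugt1a5 81.4%, and Ugt1a7c 79.6% identical to Ugt1a10 and 79.2% to Ugt1a9. The other pairs were 58.3% to 62.3% identical. Every 50-base stretch of the Ugt1a6a transcript (100%) also occurred in an annotated transcript of another gene, as did 80.7% of those of Ugt1a6b, and the gene that shared most of them was Ugt1a7c in both cases. Exons of other genes on the same strand covered 2170 of the 2297 bases of the Ugt1a6a transcript, while exons 2 to 5 hold 1311. How far the value of Ugt1a7c holds reads of Ugt1a6a and Ugt1a6b was not tested. The share was 58.2% to 69.3% for the other Ugt1a genes tested. Values of single Ugt1a genes are the shares that the estimation by RSEM gave them, and they are less certain than the sum of the cluster.

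Summed over the cluster, Ugt1a stood at 723, 811, 1212 and 777 CPM in BRD4780 replicates 1 to 4, against 1081, 973, 1060 and 1073 CPM in vehicle replicates 1 to 4. BRD4780 replicates 1, 2 and 4 were below all 4 vehicle libraries and BRD4780 replicate 3 was above them, so the groups overlapped. The log2 fold change of the sum was -0.25 ± 0.15 (SE, n = 4 each, edgeR adjusted p = 0.331). Without BRD4780 replicate 3 it was -0.44 ± 0.07 (adjusted p = 0.00253).

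Ugt1a10, one of the phenol-conjugating UGTs, had 180, 266, 575 and 280 CPM in BRD4780 replicates 1 to 4, against 523, 448, 453 and 550 CPM in vehicle replicates 1 to 4. Here too BRD4780 replicate 3 was the highest of all 8 libraries and the other treated libraries were the 3 lowest. Its log2 fold change was -0.60 ± 0.29 (SE, edgeR adjusted p = 0.223) over 8 libraries and -1.03 without BRD4780 replicate 3 (adjusted p = 0.00138). For Ugt1a9 and Ugt1a7c, which share most of their sequence with it, BRD4780 replicates 1, 2 and 4 were likewise below all vehicle libraries, while for BRD4780 replicate 3 the value of Ugt1a9 lay among the vehicle values and that of Ugt1a7c above them. Their log2 fold changes were -0.56 and -0.38 over 8 libraries (edgeR adjusted p = 0.288 and 0.427), and -1.02 and -0.86 without BRD4780 replicate 3 (adjusted p = 0.00567 and 6.3e-04). Ugt1a6a, low throughout, had 1.95, 6.47, 13.6 and 6.02 CPM with BRD4780 and 14.2, 11.9, 11.1 and 15.7 CPM with vehicle (log2 fold change -0.90 ± 0.42 SE, adjusted p = 0.218, and -1.51 without BRD4780 replicate 3, adjusted p = 0.0106).

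Ugt1a6b, its near copy, lay on the other side. It had 402, 370, 232 and 296 CPM in BRD4780 replicates 1 to 4, against 223, 251, 331 and 184 CPM in vehicle replicates 1 to 4. BRD4780 replicates 1 and 2 were the highest, and the other treated libraries lay inside the vehicle range. The log2 fold change was 0.39 ± 0.20 (SE, edgeR adjusted p = 0.247), and 0.53 without BRD4780 replicate 3 (adjusted p = 0.0522). Of the 50-base stretches of Ugt1a6a and Ugt1a6b, 100% and 80.7% occur in transcripts of Ugt1a7c, so neither value stands on its own, nor does that of Ugt1a7c.

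Within the cluster, Ugt1a6b took 55.6%, 45.6%, 19.1% and 38.1% of the Ugt1a counts in BRD4780 replicates 1 to 4, against 20.7%, 25.8%, 31.3% and 17.2% in vehicle replicates 1 to 4. Ugt1a10 took 24.9%, 32.8%, 47.4% and 36.0% with BRD4780, against 48.3%, 46.0%, 42.8% and 51.3% with vehicle. In BRD4780 replicates 1, 2 and 4 Ugt1a6b had the largest share, and in BRD4780 replicate 3 and all vehicle libraries Ugt1a10 had it. These are estimated shares of genes, and first exons were not counted on their own. Over 7 genes, an exact two-sided permutation test over 70 arrangements, whose smallest possible p is 0.0286, gave p = 0.114 for Ugt1a6b and 0.0857 for Ugt1a10, both 0.2 after adjustment over the 7. Ugt1a6a had the smallest p, 0.0571 (adjusted 0.2). No share passed the threshold with 4 libraries a group. After adjustment over the 7, a single share at the smallest possible p would not pass either, so this test decides little.

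**Figure D3:**
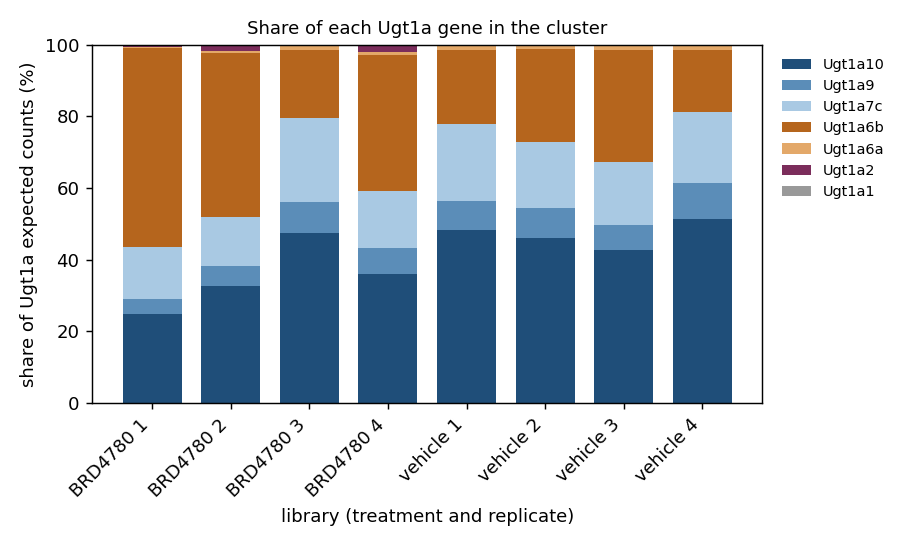
Share of the Ugt1a expected counts that each of 7 genes took in each library, stacked to 100%. The segment of Ugt1a6b is widest in BRD4780 replicates 1, 2 and 4 (55.6%, 45.6% and 38.1%) and narrower in BRD4780 replicate 3 (19.1%) and the vehicle libraries (17.2% to 31.3%).

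Ugt1a2, which lies next to Ugt1a1, had the largest log2 fold change of the 40 genes. It stood at 2.90, 10.97, 1.39 and 12.9 CPM in BRD4780 replicates 1 to 4, against 1.33, 0.221, 1.28 and 0.129 CPM in vehicle replicates 1 to 4. All 4 treated libraries were above all 4 vehicle libraries, BRD4780 replicate 3 by a small margin. The log2 fold change was 3.21 ± 0.82 (SE), which missed the threshold (edgeR adjusted p = 0.0633) and passed it without BRD4780 replicate 3 (3.58, adjusted p = 0.00522). Of the 50-base stretches of Ugt1a2, 63.7% are shared with Ugt1a5, which had 18.4 counts at most. Most of that lies in exons 2 to 5, which hold 59.3% of its bases and are shared by all Ugt1a genes. Ugt1a2 took 0.114% to 1.66% of the Ugt1a counts with BRD4780 and 0.0122% to 0.123% with vehicle. How far reads of the other Ugt1a genes entered its value was not tested. Ugt1a1, the bilirubin UGT, was low, at 1.20 to 2.68 CPM with BRD4780 and 0.589 to 3.23 CPM with vehicle (log2 fold change 0.35 ± 0.47 SE, adjusted p = 0.680). Gm20528, annotated on the opposite strand, overlaps exons of Ugt1a genes, and whether the counting used strand is not stated.

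Among the Ugt2 genes, Ugt2b5 rose. It is located on chromosome 5 (87124960 to 87140318, minus strand, GRCm38). Ugt2b5 had 22.1, 16.1, 8.34 and 22.6 CPM in BRD4780 replicates 1 to 4, against 4.06, 3.83, 7.49 and 5.91 CPM in vehicle replicates 1 to 4. All treated libraries were above all vehicle libraries, with BRD4780 replicate 3 and vehicle replicate 3 close to each other. The means were 17.3 ± 6.64 CPM with BRD4780 and 5.32 ± 1.72 CPM with vehicle (SD, n = 4 each), a log2 fold change of 1.69 ± 0.32 (SE, edgeR adjusted p = 0.0288). Leaving out 1 library at a time gave log2 fold changes of 1.54 to 1.94 with adjusted p-values of 6.3e-04 to 0.104. The call was lost without BRD4780 replicate 1, 2 or 4 or vehicle replicate 1 or 2. It was also lost with limma voom (log2 fold change 1.598, adjusted p = 0.0540) and with totals thinned to be equal (1.47, adjusted p = 0.0531). Of its 50-base stretches, 41.7% occur in another gene's transcript, most in Ugt2b38, which had under 1 CPM in every library. Of the stretches of Ugt2b37, which had 111 to 235 CPM, 15.2% occur in Ugt2b5. How far reads of Ugt2b37 entered the value of Ugt2b5 was not tested.

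The other Ugt2b genes did not pass. Ugt2b37, the highest Ugt2 gene per length, had 153, 151, 178 and 235 CPM with BRD4780 and 111, 147, 178 and 122 CPM with vehicle (log2 fold change 0.35 ± 0.17 SE, edgeR adjusted p = 0.233). Ugt2b34 had a log2 fold change of 0.51 ± 0.28 (SE, adjusted p = 0.284) and Ugt2b38 of 0.13 ± 0.46 (adjusted p = 0.888). The sum of the Ugt2b genes was 187, 178, 208 and 274 CPM with BRD4780 and 126, 159, 202 and 136 CPM with vehicle, groups that overlap by vehicle replicate 3 (log2 fold change 0.44 ± 0.17 SE, adjusted p = 0.151). Ugt2b37 was the larger part of that sum in every library. Ugt2a3 lay lower in BRD4780 replicates 2 and 4, with 18.1, 10.2, 17.7 and 6.53 CPM with BRD4780 and 12.8, 25.3, 18.7 and 19.5 CPM with vehicle (log2 fold change -0.49 ± 0.29 SE, adjusted p = 0.312).

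The Ugt3 genes were among the most abundant of the set. Their human counterparts use other sugar donors than UDP-glucuronic acid, UDP-N-acetylglucosamine for UGT3A1 and UDP-glucose or UDP-xylose for UGT3A2. Ugt3a2 had 797, 986, 1845 and 1060 CPM in BRD4780 replicates 1 to 4, against 1618, 1608, 1490 and 1731 CPM in vehicle replicates 1 to 4. Ugt3a1 had 303, 390, 638 and 445 CPM with BRD4780, against 647, 644, 561 and 595 CPM with vehicle. For both, BRD4780 replicates 1, 2 and 4 were below all vehicle libraries. BRD4780 replicate 3 was above all vehicle libraries for Ugt3a2 and inside their range for Ugt3a1. The log2 fold changes were -0.46 ± 0.22 for Ugt3a2 and -0.46 ± 0.19 for Ugt3a1 (SE, edgeR adjusted p = 0.223 and 0.169). Without BRD4780 replicate 3 they were -0.77 and -0.69 (adjusted p = 9.7e-04 and 0.00335).

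Summed markers of the proximal tubule separated the libraries likewise, though not every single marker did. The summed level of 8 markers of its S1 and S2 segments was 9725, 8750, 14045 and 9265 CPM in BRD4780 replicates 1 to 4, against 11032, 10757, 11401 and 11807 CPM in vehicle replicates 1 to 4. For 8 markers of its S3 segment the sums were 6916, 6655, 9015 and 6646 CPM with BRD4780, against 9535, 9379, 8231 and 9780 CPM with vehicle. Both sums were lower in BRD4780 replicates 1, 2 and 4 than in every vehicle library, and that of BRD4780 replicate 3 was inside or above the vehicle range. Slc34a1 was the largest part of the first sum, at 4028 to 6563 CPM with BRD4780 and 4865 to 5526 CPM with vehicle. Slc27a2 was that of the second, at 3695 to 5234 CPM with BRD4780 and 4749 to 5718 CPM with vehicle. Slc5a12 lay the other way, at 457 to 548 CPM with BRD4780 and 329 to 435 CPM with vehicle. By edgeR 0 of 8 markers were called in either list over the 8 libraries (at an unadjusted p under 0.05, 1 higher in the S1 and S2 list and 5 lower in the S3 list, and by DESeq2 0 and 2). Without BRD4780 replicate 3, 3 and 5 of them fell, beside 11.3% of all tested genes. At an unadjusted p under 0.05, 13.9% of all tested genes were higher and 10.7% lower over the 8 libraries. The part of these markers in the values of the Ugt1a and Ugt3a genes was not tested. In tissue RNA, fewer cells of a type and less RNA per cell cannot be told apart.

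None of the 20 GST genes that passed the count limit was called by edgeR over the 8 libraries, where 0 were higher and 4 were lower at an unadjusted p under 0.05. Of all tested genes, 13.9% were higher and 10.7% lower at that limit. DESeq2 called 2 lower, beside 3.47% of all genes with an adjusted p, and limma voom 0. The median log2 fold change was -0.07, with 7 values above 0 and 13 below. The 2 smallest p-values were in the theta class, whose members conjugate small halogenated compounds. Gstt1 (chromosome 10, 75783813 to 75798584, minus strand, GRCm38) had 200, 179, 225 and 145 CPM in BRD4780 replicates 1 to 4, against 273, 254, 271 and 248 CPM in vehicle replicates 1 to 4. Its groups did not overlap, and it shares no 50-base stretch with another annotated gene. The log2 fold change was -0.48 ± 0.12 (SE, edgeR adjusted p = 0.0613), and -0.58 without BRD4780 replicate 3 (adjusted p = 0.00374). Its neighbour Gstt3 had 68.0, 79.2, 87.5 and 77.6 CPM with BRD4780, against 97.3, 99.3, 88.5 and 94.7 CPM with vehicle. These groups did not overlap either, by a margin of 0.98 CPM between BRD4780 replicate 3 and vehicle replicate 3 (log2 fold change -0.28 ± 0.09 SE, adjusted p = 0.0925, and -0.35 without BRD4780 replicate 3, adjusted p = 0.0124). Unlike Gstt1, Gstt3 shares 26% of its 50-base stretches with another gene, Gm20441, whose exons overlap it by 524 bases on the same strand. Gstt2, the most abundant theta gene per length, did not share the direction of Gstt1 and Gstt3, with 512 to 687 CPM with BRD4780 and 488 to 577 CPM with vehicle (log2 fold change 0.13 ± 0.10 SE, adjusted p = 0.469).

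In the mu class, Gstm1, the most abundant GST gene per length, had 742, 849, 733 and 699 CPM with BRD4780, against 974, 795, 913 and 746 CPM with vehicle (log2 fold change -0.18 ± 0.11 SE, edgeR adjusted p = 0.318). Gstm5 differed little, at 263 to 325 CPM with BRD4780 and 274 to 301 CPM with vehicle (log2 fold change 0.06, adjusted p = 0.690). Gstm4 had the smallest p of the class, with 17.1, 15.9, 21.97 and 15.1 CPM with BRD4780, against 23.0, 26.3, 20.9 and 22.8 CPM with vehicle. BRD4780 replicate 3 alone of the treated libraries reached the vehicle range of Gstm4, and the log2 fold change was -0.40 ± 0.13 (SE, adjusted p = 0.101) over 8 libraries and -0.53 without it (adjusted p = 0.00596). The remaining mu genes, Gstm2, Gstm6 and Gstm7, had log2 fold changes of -0.53, 0.63 and -0.03 with adjusted p-values of 0.212 to 0.916.

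In the alpha class, Gsta2 varied widely within groups. It had 127, 223, 131 and 245 CPM with BRD4780, against 158, 79.2, 182 and 57.4 CPM with vehicle. Its vehicle libraries spanned more than the distance between the group means (log2 fold change 0.60 ± 0.35 SE, edgeR adjusted p = 0.311), and 64.2% of its 50-base stretches are shared, most with Gsta1. Gsta3 had a log2 fold change of -0.06 (adjusted p = 0.875). Gsta4, which detoxifies the lipid peroxidation product 4-hydroxynonenal, had 16.5 to 18.8 CPM with BRD4780 and 17.5 to 24.9 CPM with vehicle (log2 fold change -0.28 ± 0.11 SE, adjusted p = 0.168).

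Gstz1, Gstk1 and Gsto1 were at similar levels in both groups. Gstz1, which isomerises maleylacetoacetate in tyrosine breakdown, had 478, 480, 565 and 502 CPM with BRD4780 and 524, 494, 477 and 525 CPM with vehicle, a log2 fold change of 0.00 (edgeR adjusted p = 0.986). Gstk1, a mitochondrial and peroxisomal enzyme, had 111 to 133 CPM with BRD4780 and 112 to 132 CPM with vehicle (log2 fold change -0.03, adjusted p = 0.854). Gsto1, which reduces dehydroascorbate, had 21.6 to 22.4 CPM with BRD4780 and 20.999 to 25.8 CPM with vehicle (log2 fold change -0.07, adjusted p = 0.649). For these genes the groups overlapped, and a p that misses the threshold does not show that the levels were equal. Gstp1, whose reads are partly interchangeable with those of Gstp2, had 259, 241, 285 and 205 CPM with BRD4780 and 323, 294, 268 and 265 CPM with vehicle (log2 fold change -0.21 ± 0.11 SE, adjusted p = 0.252). The microsomal genes Mgst1 and Mgst3 had log2 fold changes of 0.32 ± 0.28 and -0.12 (SE, adjusted p = 0.489 and 0.379), and Mgst1 was highest in BRD4780 replicate 2, at 106 CPM against 39.7 to 62.0 CPM in the other libraries. Gsto2 and Gstp2, both under 10 CPM, had adjusted p-values of 0.872 and 0.300.

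Of the 6 SULT genes that passed the count limit, Sult1a1 rose. Sult1a1, on chromosome 7 (126672865 to 126676432, minus strand, GRCm38), encodes the main phenol sulfotransferase. It had 29.4, 31.2, 19.7 and 36.8 CPM in BRD4780 replicates 1 to 4, against 13.2, 14.3, 15.2 and 9.36 CPM in vehicle replicates 1 to 4. All treated libraries were above all vehicle libraries, with BRD4780 replicate 3 lowest among those treated. The means were 29.3 ± 7.14 CPM with BRD4780 and 13.0 ± 2.56 CPM with vehicle (SD, n = 4 each), a log2 fold change of 1.16 ± 0.20 (SE, edgeR adjusted p = 0.0200). Leaving out 1 library at a time gave log2 fold changes of 1.03 to 1.31 with adjusted p-values of 6.0e-04 to 0.0689. The call was lost without BRD4780 replicate 1, 2 or 4 or vehicle replicate 1 or 2, settings in which 0.229% to 0.607% of all genes were called. Sult1a1 overlaps Sgf29 on the opposite strand by 56 bases, and 7.72% of its 50-base stretches are shared with Gm6939.

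Sult1d1, which sulfates catecholamines in mice, was the most abundant SULT gene per length. It had 823, 983, 817 and 993 CPM in BRD4780 replicates 1 to 4, against 636, 635, 802 and 795 CPM in vehicle replicates 1 to 4. The groups did not overlap, with 15 CPM between the nearest libraries, BRD4780 replicate 3 and vehicle replicate 3. Its log2 fold change was 0.33 ± 0.12 (SE, edgeR adjusted p = 0.124), and 0.38 without BRD4780 replicate 3 (adjusted p = 0.0324). Sult1c2 had 243, 230, 288 and 300.02 CPM with BRD4780, against 338, 331, 331 and 330 CPM with vehicle. Its vehicle libraries lay within 8.21 CPM of each other and all treated libraries lay below them (log2 fold change -0.33 ± 0.10 SE, adjusted p = 0.0840, and -0.37 without BRD4780 replicate 3, adjusted p = 0.0157). Sult1b1, Sult2b1 and Sult5a1 had log2 fold changes of 0.03, -0.15 and 0.01 and adjusted p-values of 0.802 to 0.991.

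**Figure D4:**
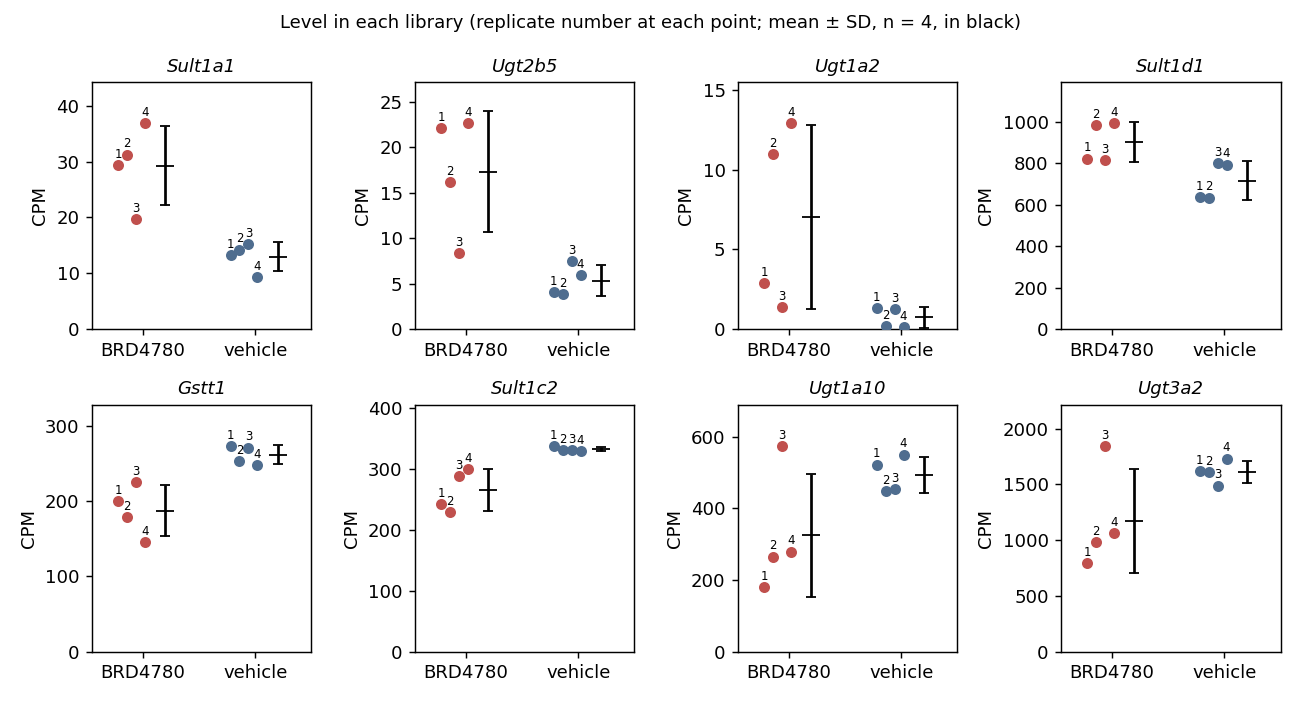
Level (CPM) in each library of 8 genes, with the replicate number at each point and the mean ± SD (n = 4) in black, BRD4780 in red and vehicle in blue. The groups are apart for Sult1a1 (19.7 to 36.8 CPM with BRD4780, 9.36 to 15.2 CPM with vehicle), Ugt2b5, Ugt1a2, Sult1d1, Gstt1 and Sult1c2, while BRD4780 replicate 3 lies with or above the vehicle libraries for Ugt1a10 and Ugt3a2.

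**Figure D5:**
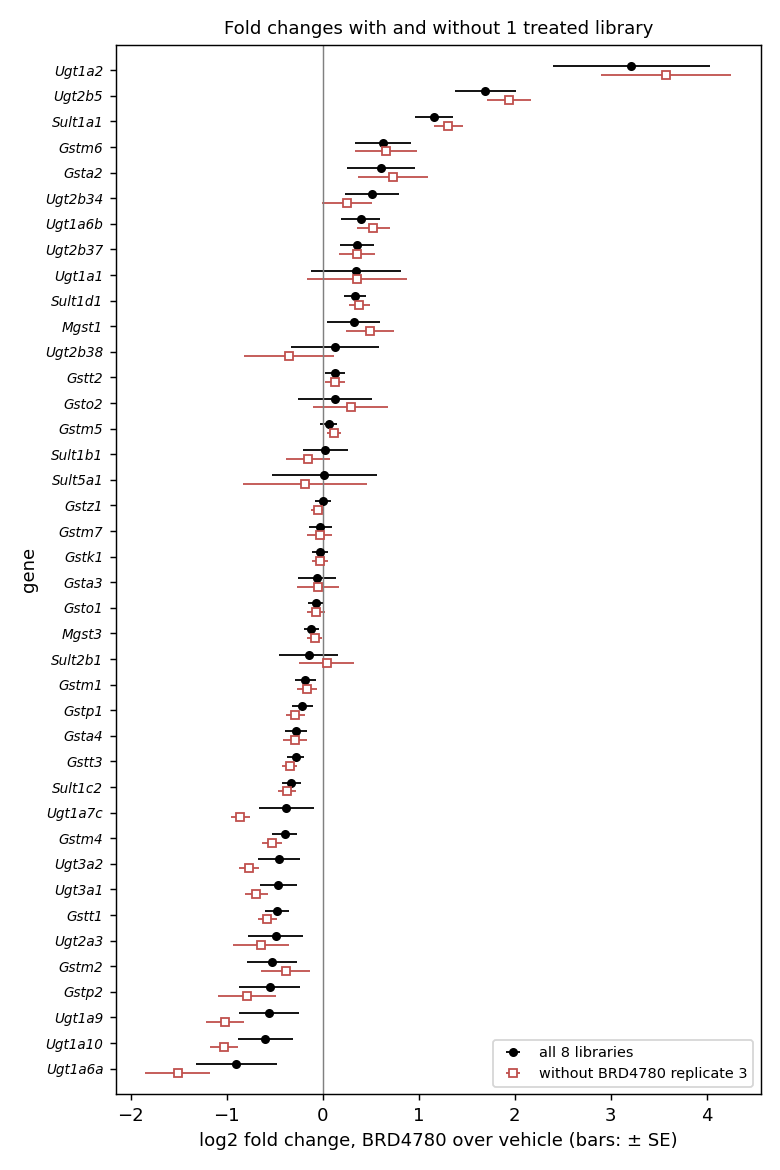
Log2 fold change of BRD4780 over vehicle with its standard error for the 40 genes, from all 8 libraries (black) and without BRD4780 replicate 3 (open red). Leaving out that library moves Ugt1a10 to -1.03 and Ugt3a2 to -0.77, and moves Sult1a1 and Ugt2b5 to 1.31 and 1.94.

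As a share of all counts of a library, the UGT genes took 0.211%, 0.251%, 0.376% and 0.267% in BRD4780 replicates 1 to 4, against 0.340%, 0.329%, 0.329% and 0.346% in vehicle replicates 1 to 4. The GST genes took 0.325% to 0.387% with BRD4780 and 0.321% to 0.378% with vehicle, ranges that overlap almost fully. The SULT genes took 0.109% to 0.140% with BRD4780 and 0.0957% to 0.114% with vehicle. The 3 families together took under 1% of the counts of every library, 0.671% to 0.809% with BRD4780 and 0.757% to 0.816% with vehicle.

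The 250 bases before the start of the 2 genes that rose are shown because they are the windows searched for motifs, from the RefSeq promoter table on GRCm38.p6, 5′ to 3′ on the minus strand, at chr7:126676419-126676668 for Sult1a1 and chr5:87140341-87140590 for Ugt2b5. Capitals mark the letters GTTAAT, part of the site of the hepatocyte nuclear factor HNF1.
Sult1a1: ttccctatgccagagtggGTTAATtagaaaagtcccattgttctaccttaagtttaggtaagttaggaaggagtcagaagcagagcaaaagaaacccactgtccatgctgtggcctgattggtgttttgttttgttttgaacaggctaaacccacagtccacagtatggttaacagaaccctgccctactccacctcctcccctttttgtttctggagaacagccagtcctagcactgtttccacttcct
Ugt2b5: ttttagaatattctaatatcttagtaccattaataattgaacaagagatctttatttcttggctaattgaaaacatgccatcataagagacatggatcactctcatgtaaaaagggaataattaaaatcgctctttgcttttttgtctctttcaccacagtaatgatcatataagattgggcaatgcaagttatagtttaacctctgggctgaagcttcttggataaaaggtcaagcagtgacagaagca

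The motifs were searched on both strands in 300 bases from 250 before to 50 after each start, over 47 windows of 36 of the conjugation genes and 32851 windows of all genes. GTTAAT was found in 19.1% of the conjugation gene windows and 7.1% of all windows. Besides Sult1a1, the genes with it were Sult1d1, Ugt1a1, Ugt1a6a, Ugt1a9, Ugt1a10, Ugt2a3, Ugt3a1 and Gsta3. The antioxidant response element core, TGACNNNGC, was found in 8.51% of the conjugation gene windows (Gsta3, Gstm5, Gstm7 and Mgst1) and 12.4% of all windows. The xenobiotic response element core, GCGTG, was found in 21.3% and 32.4%, and the C/EBP-ATF response element, TGATGNAAT, in 0 of 47 and 0.965%. Ugt2b5 held no match to any of the 4. A match is a description of the letters, and no match says only that they are not in this window.

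Genes that supply the cofactors were looked at beside the enzymes. For these and the later lists, the background by edgeR was 2.30% of all tested genes higher and 0.623% lower. It was 13.9% and 10.7% at an unadjusted p under 0.05, and 6.03% and 3.47% by DESeq2. Without BRD4780 replicate 3 it was 12.1% and 11.3% by edgeR. For glutathione, 2 of 14 genes rose and 1 fell by edgeR. At an unadjusted p under 0.05, 2 were higher and 8 lower, and DESeq2 called 2 higher and 4 lower. Slc3a2, the heavy chain of the cystine importer and of other amino acid transporters, had 268 ± 50.8 CPM with BRD4780 and 153 ± 5.85 CPM with vehicle (SD, n = 4 each, edgeR adjusted p = 0.0141). Chac1, which degrades glutathione, had 6.28 ± 3.52 CPM with BRD4780 and 1.14 ± 0.20 CPM with vehicle (adjusted p = 0.0149). Gss, glutathione synthetase, fell to 414, 329, 480 and 332 CPM in BRD4780 replicates 1 to 4, against 584, 611, 571 and 596 CPM in vehicle replicates 1 to 4. Its log2 fold change was -0.60 ± 0.12 (SE, adjusted p = 0.0357). The median log2 fold change of the 14 genes was -0.30, and without BRD4780 replicate 3, 2 rose and 9 fell.

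For the other cofactors nothing was called over the 8 libraries. Of 6 genes of UDP-glucuronate supply and hydrolysis, 0 were called by edgeR (2 lower at an unadjusted p under 0.05, 1 lower by DESeq2), and 3 fell without BRD4780 replicate 3. Ugdh, which makes UDP-glucuronate, had a log2 fold change of -0.38 (edgeR adjusted p = 0.0917) and Slc35d1, which carries it into the endoplasmic reticulum, of -0.52 (adjusted p = 0.199). Of 10 tested genes of sulfate donor supply and sulfatases, 0 were called (3 lower at an unadjusted p under 0.05, 1 lower by DESeq2) and 4 fell without BRD4780 replicate 3. Papss1, a PAPS synthase, had a log2 fold change of -0.42 (adjusted p = 0.1003) and Bpnt1, which removes the spent donor, of -0.48 (adjusted p = 0.142).

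Downstream of the enzymes, 0 of 10 tested genes of the mercapturate pathway, which turns glutathione conjugates into excreted mercapturates, were called by edgeR (1 higher and 2 lower at an unadjusted p under 0.05, 1 lower by DESeq2). Lap3, an aminopeptidase, had a log2 fold change of -0.44 (adjusted p = 0.0909) and Ggt6 of 0.42 (adjusted p = 0.152). Without BRD4780 replicate 3, 1 rose and 4 fell. Of 9 conjugate efflux transporters, 0 were called by edgeR, by unadjusted p and by DESeq2, with Abcc5 at a log2 fold change of 0.34 (edgeR adjusted p = 0.245) and Abcg2 at -0.17 (adjusted p = 0.293). Abcg2 was called lower without BRD4780 replicate 3 (-0.26, adjusted p = 0.0229).

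Regulators of these genes were not called by edgeR either, 0 of 17 (3 higher and 3 lower at an unadjusted p under 0.05, 1 higher and 2 lower by DESeq2). Nr3c1, the glucocorticoid receptor, had a log2 fold change of -0.49 (adjusted p = 0.0825) and Maff, a small Maf protein, of 1.27 (adjusted p = 0.0866). When BRD4780 replicate 3 was left out, 3 regulators rose, among them Maff (1.56, adjusted p = 0.00173), and 1 fell, Nr3c1 (-0.67, adjusted p = 5.98e-04). Of 14 targets of NRF2 outside the conjugation genes, 1 rose and 0 fell: Hmox1, heme oxygenase, had 97.8 ± 31.9 CPM with BRD4780 and 38.2 ± 9.24 CPM with vehicle (SD, n = 4 each, edgeR adjusted p = 0.0175). At an unadjusted p under 0.05, 3 of the 14 were higher and 4 lower, and DESeq2 called 1 higher and 3 lower. Without BRD4780 replicate 3, 3 rose and 5 fell, among the 5 Gclc and Gclm, which make the first step of glutathione synthesis and are also in the glutathione list. The median log2 fold change of the 14 over 8 libraries was -0.19. Of 5 tested targets of AHR and 4 of CAR and PXR, 0 were called by edgeR (1 target of AHR higher at an unadjusted p under 0.05 and by DESeq2), with Cyp1b1 at a log2 fold change of 0.62 (adjusted p = 0.0790), Nqo1 at -0.19 (0.396), Cyp3a13 at 0.55 (0.332) and Por at -0.12 (0.549). Cyp1b1 was called higher without BRD4780 replicate 3 (0.66, adjusted p = 0.0291).

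Markers of cells other than the proximal tubule were read in the same libraries. The summed level of 5 podocyte markers was 185 to 281 CPM with BRD4780 and 52.3 to 129 CPM with vehicle, with 2 of 5 called higher by edgeR, 4 by DESeq2, and 5 by edgeR without BRD4780 replicate 3. That of 5 endothelial markers was 167 to 218 CPM with BRD4780 and 77.1 to 159 CPM with vehicle, with 2 of 5 called higher by edgeR, 4 by DESeq2, and 4 by edgeR without BRD4780 replicate 3. Both were higher in every treated library, in the direction of Sult1a1 and Ugt2b5, and their part in those results was not tested. The summed level of 5 markers of the thick ascending limb was 1966 to 3194 CPM with BRD4780 and 2989 to 4054 CPM with vehicle, with 1 of 5 called lower (Kcnj1), 4 by DESeq2, and 4 by edgeR without BRD4780 replicate 3. Of 3 distal tubule markers 1 was called higher (Trpm6), with sums of 367 to 489 CPM with BRD4780 and 325 to 531 CPM with vehicle. Erythrocyte markers summed to 171 to 776 CPM with BRD4780 and 495 to 1532 CPM with vehicle, with 0 of 3 called by edgeR (3 lower at an unadjusted p under 0.05, 1 by DESeq2) and 3 called lower without BRD4780 replicate 3. Collecting duct markers summed to 388 to 870 CPM with BRD4780 and 594 to 910 CPM with vehicle, with overlapping ranges. By edgeR 0 of 5 were called (2 lower at an unadjusted p under 0.05, 2 by DESeq2), and without BRD4780 replicate 3, 1 rose and 1 fell. Slc4a1 is in both the erythrocyte and the collecting duct list. Adipocyte markers summed to 52.1 to 143 CPM with BRD4780 and 71.2 to 203 CPM with vehicle, most of it Fabp4 (51.8 to 131 and 65.5 to 166 CPM). Adipoq, Cidec, Plin1 and Fabp4 had log2 fold changes of -2.10, -1.82, -2.17 and -0.39. Of these, 0 were called by edgeR or DESeq2 and 2 were lower at an unadjusted p under 0.05. Leukocyte markers summed to 24.9 to 41.0 CPM with BRD4780 and 23.9 to 88.3 CPM with vehicle. The ranges of both sums overlapped between the groups. The part of these lists was not tested either. The liver expresses many of these enzymes, and 7 hepatocyte markers summed to 229 to 497 CPM with BRD4780 and 195 to 405 CPM with vehicle, nearly all of it Ttr. Alb was at 5.17 to 11.3 CPM with BRD4780 and 6.60 to 9.33 CPM with vehicle, and Ahsg had 0 counts in every library. Of 6 adrenal cortex markers, Cyp11b1 and Cyp11b2 had 0 counts, and the sum was 6.23 to 9.77 CPM with BRD4780 and 4.01 to 6.86 CPM with vehicle.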

How the data were processed

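Bulk RNA sequencing measured kidney RNA of 8 mice, 4 per group. The authors deposited expected counts per gene, not normalized, as RSEM estimates them. Per the submitters' processing notes, STAR 2.5.2b, RSEM 1.3.0 and Picard were used and the builds mm10 and hg19 are named, with no role stated. No annotation or strand setting is stated. Groups come from the treatment labels, although titles of treated samples name AGN50. Library totals were 5.74 to 28.5 M, with 15.1% to 28.9% of a library's values fractional. Of 22121 lines, repeats of 343 symbols were identical and were collapsed to 21759 genes. In the table, 1 column of per-sample values was not used.

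The expected counts were rounded, normalized by TMM after low genes were removed by filterByExpr (minimum count 10). The quasi-likelihood F-test of edgeR 4.0.16 (R 4.3.3) compared BRD4780 with vehicle over 13474 genes without covariates, with Benjamini-Hochberg adjustment and a threshold of 0.05, after a check on simulated data. Adjusted p-values are from this test unless another is named. Fold changes are BRD4780 over vehicle, with SE from the F statistic. CPM use TMM-scaled totals. Levels per length divide CPM by the longest basic protein-coding transcript in GENCODE M21. Alternatives were RLE size factors, DESeq2 1.42.0, limma voom 3.58.1, other filters, equal totals, summed clusters and leaving out each library. Replicate numbers follow deposition order and pair nothing. A fit with a number shared by some titles as a block was added after seeing the data. The series' design text gives 4 mice per group, so each library stands for its own mouse.

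The members and lists were chosen with earlier results of these data known. Named genes are members past the threshold, in each subfamily the 2 with the highest level per length and the 1 with the smallest p, those nearest the count limit, and from each list the members past the threshold or the 2 with the smallest p. Other members named were chosen after their values were seen.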

Additional observations from a re-analysis of the deposited data

Results flagged for a closer look

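In 80 groups of 4 libraries (40 genes in each treatment), 2 held a library far from the other 3 by Dixon's test at 95%, where chance alone gives about 4, or 1 in 20. Ugt1a7c stood at 283.81 CPM in BRD4780 replicate 3, against 104.17 to 122.65 CPM in the other treated libraries. Gsto1 stood at 21.585 CPM in BRD4780 replicate 4, against 22.39 to 22.421 CPM in the other treated libraries, a gap of under 1 CPM in the shallowest library.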

How the results depend on the processing

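The number of the 40 genes called higher was 2 with RLE size factors, without a low-count filter and with 10 or more counts in 4 libraries, 3 with DESeq2 (Sult1a1, Ugt2b5 and Ugt1a2), and 1 each with limma voom, with totals thinned to be equal and with clusters summed (Sult1a1 each time, where Ugt2b5 kept a log2 fold change of 1.598 under voom and 1.47 with equal totals, and where summing removes Ugt2b5 as a single gene). The number called lower was 0 under these settings except DESeq2, which gave 3: Gstt1 (log2 fold change -0.49), Sult1c2 (-0.34) and Gstt3 (-0.29). DESeq2 called 1325 of all genes, 9.49%. Leaving out 1 library at a time gave 0 to 4 higher and 0 to 10 lower, with the most without BRD4780 replicate 3, a median log2 fold change of the 40 from -0.12 to -0.014, and a log2 fold change of summed Ugt1a from -0.44 to -0.16. Without BRD4780 replicate 1, 2 or 4 or vehicle replicate 1 or 2, 0 were called, and the cause was not tested.

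Signs turned for 9 of the named genes. Gstz1 was at -0.0051 with RLE size factors, -0.0085 with DESeq2 and -0.014 with equal totals. Sult5a1 was at -0.076 with DESeq2, -0.061 with limma voom and -0.013 without the filter, and Gsto1 at 0.040 with equal totals. Leaving out 1 library gave ranges of -0.21 to 0.10 for Gsta3, -0.088 to 0.0059 for Gstk1, -0.10 to 0.49 for Mgst1, -0.31 to 0.38 for Sult5a1, -0.054 to 0.031 for Gstz1, -0.35 to 0.38 for Ugt2b38 and -0.14 to 0.40 for Gsto2. Of 443 values for 29 genes under 16 settings, 388 kept direction and side of the threshold, 14 kept direction and lost the call, 14 gained it and 27 turned.

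The labels give no replicate numbers, but titles share a number of unstated meaning in 2 pairs: BRD4780 replicate 1 with vehicle replicate 2, and BRD4780 replicate 2 with vehicle replicate 4. Their deviations from the group means over all tested genes correlated at -0.06 and -0.33, beside -0.32 to 0.28 between libraries that share no number. With 2 pairs this cannot decide whether the number joins mice, and the main fit did not use it. A block on that number, chosen after seeing the data, takes the treatment effect from those 2 pairs alone, with 1 residual degree of freedom. It called 1.09% of all genes, and 1 of the 40 higher (Ugt1a2) and 4 lower (Ugt1a7c, Ugt1a9, Ugt1a10 and Ugt3a2), while Sult1a1 (1.39) and Ugt2b5 (1.98) had an adjusted p of 0.0513. With this block, signs turned for Gsta3 (0.23), Gstk1 (0.054), Gstm1 (0.043), Gstz1 (-0.089) and Ugt2b38 (-0.49). Depth limits low genes such as Sult5a1, and reads shared within Ugt1a, Ugt2b, Gsta and Gstp limit single values there. Reads shared with Gm20441 likewise limit the value of Gstt3.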
